A study of Gallus gallus with 12 samples.

Results

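The genes described here make up the program of the red blood cell: the membrane proteins RHAG, SLC4A1, SPTB and EPB41, the heme enzyme ALAS2, the receptor EPOR, and the transcription factors GATA1, TAL1, LMO2 and NFE2. Their members were chosen by symbol, as every probe set to which the platform annotation gives 1 of these 10 symbols. That rule found 18 of the 38439 probe sets apart from controls, and these 18 measured 6 genes: SPTB with 5 probe sets, EPB41 and TAL1 with 4 each, RHAG and LMO2 with 2 each, and SLC4A1 with 1. The annotation used here gives no probe set to ALAS2, GATA1, EPOR or NFE2, so these 4 genes are not analysed here as members.

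The chorioallantoic membrane (CAM) is the vascular membrane through which the chick embryo breathes in the egg. CAMs of chick embryos were isolated at 4 developmental stages, embryonic days E5, E7, E10 and E14. Each stage is represented by CAMs of 3 separate embryos, each hybridised to an Affymetrix chicken array of its own, which makes 12 arrays. No agent, transgene or surgery was involved, and stages were set against each other, the later against the earlier. At E5 the tissue was still the allantoic vesicle rather than a fused membrane. Tissue was frozen directly, so each array read the RNA of a whole membrane with the blood it held. A higher signal can therefore mean more cells of a type or more RNA per cell, and these cannot be told apart.

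Red cells mature from progenitors that first switch on the transcription factors and the receptor for the hormone erythropoietin, and then the hemoglobins, the heme enzymes and the proteins of the red cell membrane. The membrane carries an anion exchanger and ammonia-channel relatives, and lies on a skeleton of spectrin, ankyrin and protein 4.1. In birds the circulating red cell keeps its nucleus. Early, primitive red cells carry embryonic hemoglobins and are replaced during incubation by definitive red cells with adult hemoglobins.

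Values are signals on a linear scale, scaled by the authors so that the trimmed mean of each array was 100. A probe set was tested where its signal was at least 35 in all 3 arrays of at least 1 stage, which 17726 probe sets met. Changes are differences of mean log2 signal, later minus earlier, from 1 limma fit of all 12 arrays, with the standard error (SE) and a p adjusted over all 17726. A probe set was called where the adjusted p was under 0.05 and the log2 fold change was over 1 in size, and "rose" and "fell" are used of called probe sets only. Of the 18 probe sets 13 were tested. The other 5 (3 of SPTB, 1 of EPB41 and 1 of TAL1) stayed below the limit, with signals that ranged from 0.436 to 79.9 over the 12 arrays.

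The arrays were alike in scale, and 1 stood apart. On E7 replicate 3 the median signal was 48.6, and on the other 11 arrays it lay between 24.4 and 33.6. Its log2 signals correlated with those of its stage at 0.830 on average, against 0.876 to 0.943 for the other 11. The ratio of the 3′ to the 5′ actin control, which grows when RNA is degraded, was 1.26 to 1.50 at E5, 1.19 to 2.76 at E7, 1.51 to 1.66 at E10 and 2.21 to 3.43 at E14. The counts of called members given for each comparison were the same without E7 replicate 3. The part of the 3′ to 5′ ratio in the differences to E14 was not tested.

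Of the 6 genes RHAG changed most on the log2 scale. It is the Rh-associated glycoprotein, a relative of ammonia channels that brings the Rh blood group proteins to the red cell surface. On its first probe set, whose identifier ends in S1, the signals were 14.7, 25.2 and 16.2 at E5, 151, 75.4 and 128 at E7, 557, 457 and 712 at E10, and 874, 689 and 316 at E14. On its second, ending in S2, they were 1.50, 1.57 and 7.62 at E5, 208, 58.0 and 166 at E7, 869, 836 and 752 at E10, and 1245, 965 and 755 at E14. The 3 stages E5, E7 and E10 did not overlap on either probe set, whereas the E14 arrays overlapped those of E10 on both, with E14 replicate 3 the lowest of its stage each time.

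By the first RHAG probe set the gene rose by 2.64 (SE 0.37, adjusted p = 0.00237) at E7 against E5 and again by 2.32 (SE 0.37, adjusted p = 0.00361) at E10 against E7. At E14 against E10 the difference was 0.02, with a 95% interval of -0.77 to 0.81 (adjusted p = 0.984). The second probe set rose by 5.59 (SE 0.55, adjusted p = 0.00018) and 2.70 (SE 0.55, adjusted p = 0.013) in the same 2 steps, and differed by 0.24 (interval -0.93 to 1.41) in the last. Its E5 signals lay far below the limit of 35, so the size of its first step depends on the treatment of low signals: it was 2.65 with signals under 20 set to 20, and 2.90 with an offset of 16. The first probe set also had E5 signals under 20, and its first step was 2.39 with that floor and 1.92 with that offset. At E14 against E5 the 2 probe sets of RHAG rose by 4.98 (adjusted p = 6.71e-07) and 8.53 (adjusted p = 3.47e-07), where the first value became 4.73 with the floor and 4.11 with the offset, and the second 5.60 and 5.67. Without E10 replicate 1 or replicate 3 the second probe set missed the limit at E10 against E7, at an adjusted p of 0.0561 or 0.0511.

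**Figure D1:**
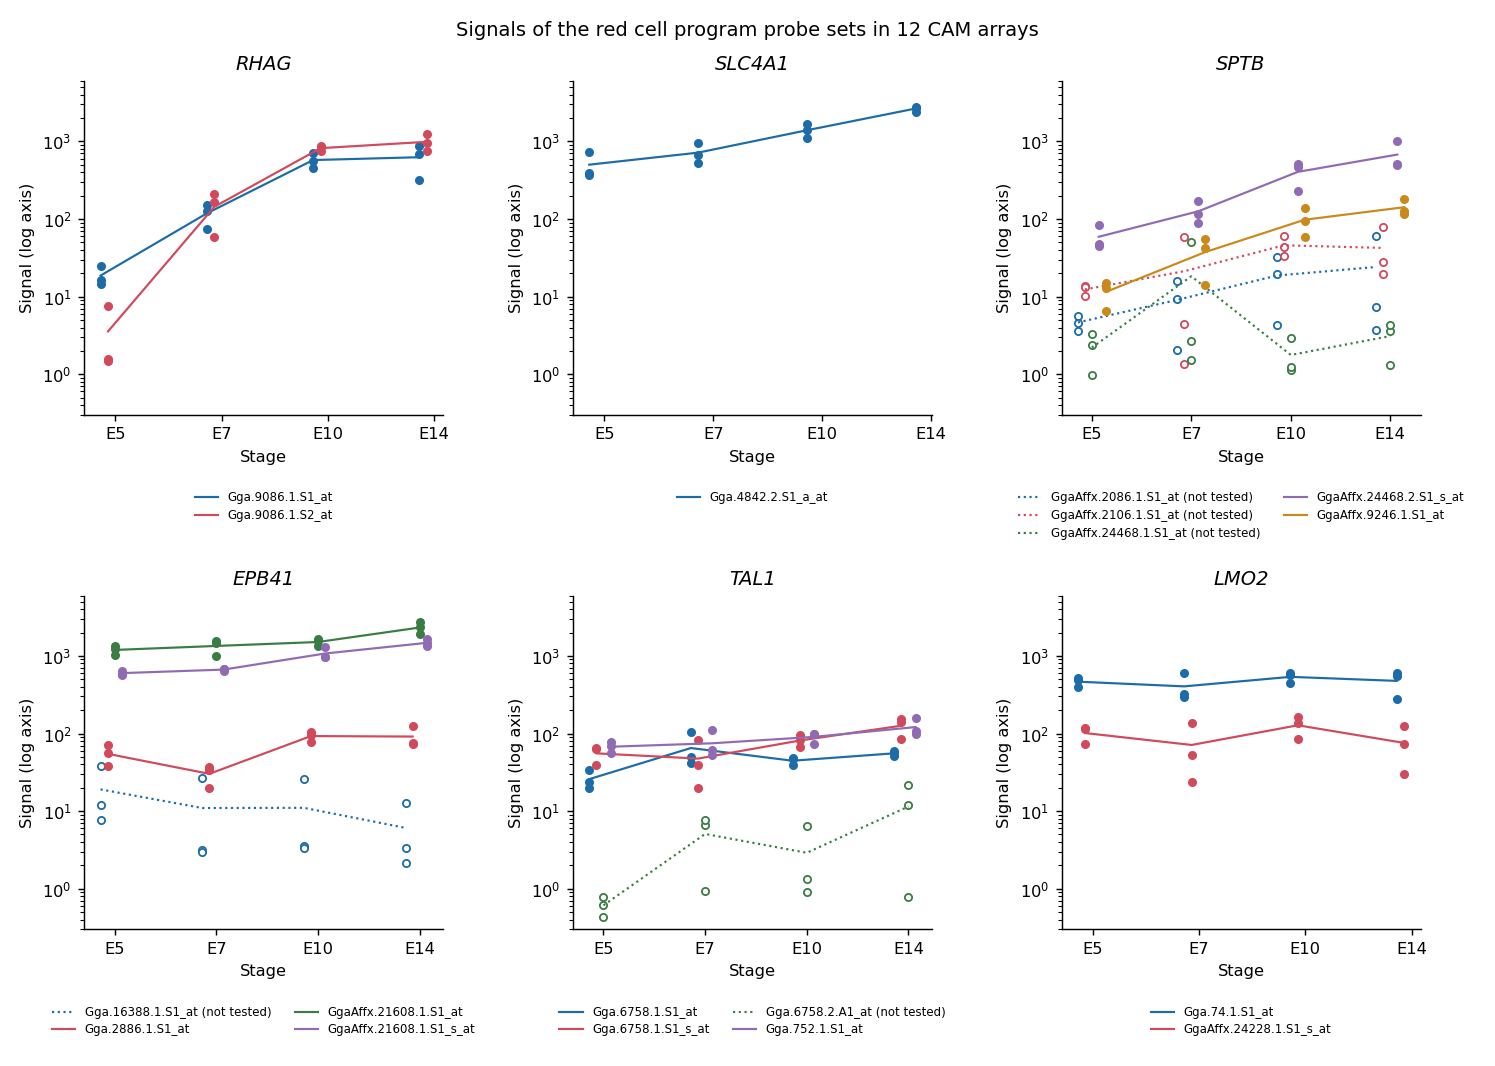
Signal per array (log axis) of the 18 probe sets in 6 panels by gene, over the stages E5, E7, E10 and E14; each point is 1 CAM, lines join stage means, and open points with dotted lines are the 5 probe sets that were not tested. The RHAG points of E5, E7 and E10 do not overlap, all E14 points of SLC4A1 and of the tested SPTB probe sets lie above those of E5, and the LMO2 stages overlap.

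SLC4A1 encodes band 3, the chloride-bicarbonate exchanger that is the main membrane protein of the red cell and anchors its skeleton. In mammals a shorter form also serves acid-secreting cells of the kidney. The signals of its probe set were 369.8, 741 and 393 at E5, 943, 533 and 675 at E7, 1419, 1098 and 1656 at E10, and 2811, 2736 and 2410.3 at E14. The E5 and E7 arrays overlapped, all E10 arrays were above them, and all E14 arrays were above those of E10. The means were 501 ± 208, 717 ± 208, 1391 ± 280.1 and 2652 ± 213 from E5 to E14 (SD, n = 3 each).

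None of the single steps of SLC4A1 passed: 0.55 (SE 0.27, adjusted p = 0.315) at E7 against E5, 0.98 (adjusted p = 0.0587) at E10 against E7 and 0.95 (adjusted p = 0.0717) at E14 against E10. Over longer spans it rose, by 1.53 (SE 0.27, adjusted p = 0.00164) at E10 against E5 and by 2.48 (SE 0.27, adjusted p = 1.40e-05) at E14 against E5. The 95% interval of SLC4A1 at E14 against E10 was 0.36 to 1.53, and whether SLC4A1 and RHAG differed in that step was not tested.

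SPTB encodes β-spectrin, which pairs with α-spectrin in the lattice under the red cell membrane and is also made in muscle and brain. Its brighter probe set, whose suffix s_at marks probes that can be shared with other transcripts, had signals of 47.8, 83.9 and 45.6 at E5, 115, 90.1 and 172 at E7, 473, 228 and 513 at E10, and 1017, 499 and 515 at E14. Its dimmer tested probe set had 13.1, 6.47 and 14.9 at E5, 42.3, 14.2 and 56.1 at E7, 95.4, 58.8 and 139.8 at E10, and 182, 128 and 116 at E14. On both, every E10 and E14 array lay above every E5 and E7 array, and the E14 arrays overlapped those of E10.

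The brighter SPTB probe set rose by 1.65 (SE 0.38, adjusted p = 0.023) at E10 against E7, by 2.75 (adjusted p = 0.000229) at E10 against E5 and by 3.49 (SE 0.38, adjusted p = 1.13e-05) at E14 against E5. Its steps at E7 against E5 (1.10, adjusted p = 0.169) and at E14 against E10 (0.75, adjusted p = 0.289) did not pass. The dimmer probe set passed in neither of the first 2 steps, with 1.58 (adjusted p = 0.159) and 1.51 (adjusted p = 0.116), and rose by 3.09 (adjusted p = 0.00114) at E10 against E5 and by 3.69 (SE 0.53, adjusted p = 0.000106) at E14 against E5. Since its E5 signals were under 20, the last value became 2.80 with a floor of 20 and 2.51 with an offset of 16. The call of SPTB at E10 against E7 was lost without E7 replicate 1, E7 replicate 2, E10 replicate 1 or E10 replicate 3, at adjusted p values of 0.0553, 0.0786, 0.106 and 0.113, and with variances moderated without the intensity trend (adjusted p = 0.0548).

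EPB41 encodes protein 4.1, which ties spectrin to actin and to the membrane, and it is made in many cell types besides red cells. A pair of its probe sets was designed from 1 source sequence. The one with the suffix s_at had signals of 566, 645 and 588 at E5, 671, 642 and 686 at E7, 959, 963 and 1302 at E10, and 1629, 1453 and 1339.7 at E14. The E7 arrays overlapped those of E5, all E10 arrays were above both, and all E14 arrays were above those of E10. This probe set rose by 1.29 (SE 0.18, adjusted p = 7.38e-05) at E14 against E5, while at E10 against E7 it differed by 0.68 (adjusted p = 0.045) and at E10 against E5 by 0.83 (adjusted p = 0.00501), both under the fold limit.

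Its partner averaged 1194 ± 159.6 at E5, 1344 ± 299.8 at E7, 1511 ± 148 at E10 and 2322 ± 406 at E14 (SD, n = 3 each). It differed by 0.19 (adjusted p = 0.636) at E10 against E7 and by 0.34 (adjusted p = 0.272) at E10 against E5. Its difference at E14 against E5 was 0.95 (SE 0.21, adjusted p = 0.00263), just under the fold limit. Another, dimmer EPB41 probe set took another course, with 37.8, 70.7 and 55.7 at E5, 34.4, 19.7 and 36.6 at E7, 95.2, 78.7 and 104 at E10, and 125, 74.3 and 75.0 at E14. All its E7 arrays were below those of E5 and E10. The dip to E7 did not pass (-0.86, adjusted p = 0.244), and at E10 against E7 it rose by 1.66 (SE 0.36, adjusted p = 0.0198), a call that was lost without E7 replicate 2, E10 replicate 1 or E10 replicate 3 at adjusted p values of 0.0633, 0.0804 and 0.0903, and in a fit of the 6 compared arrays alone (adjusted p = 0.0571).

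**Figure D2:**
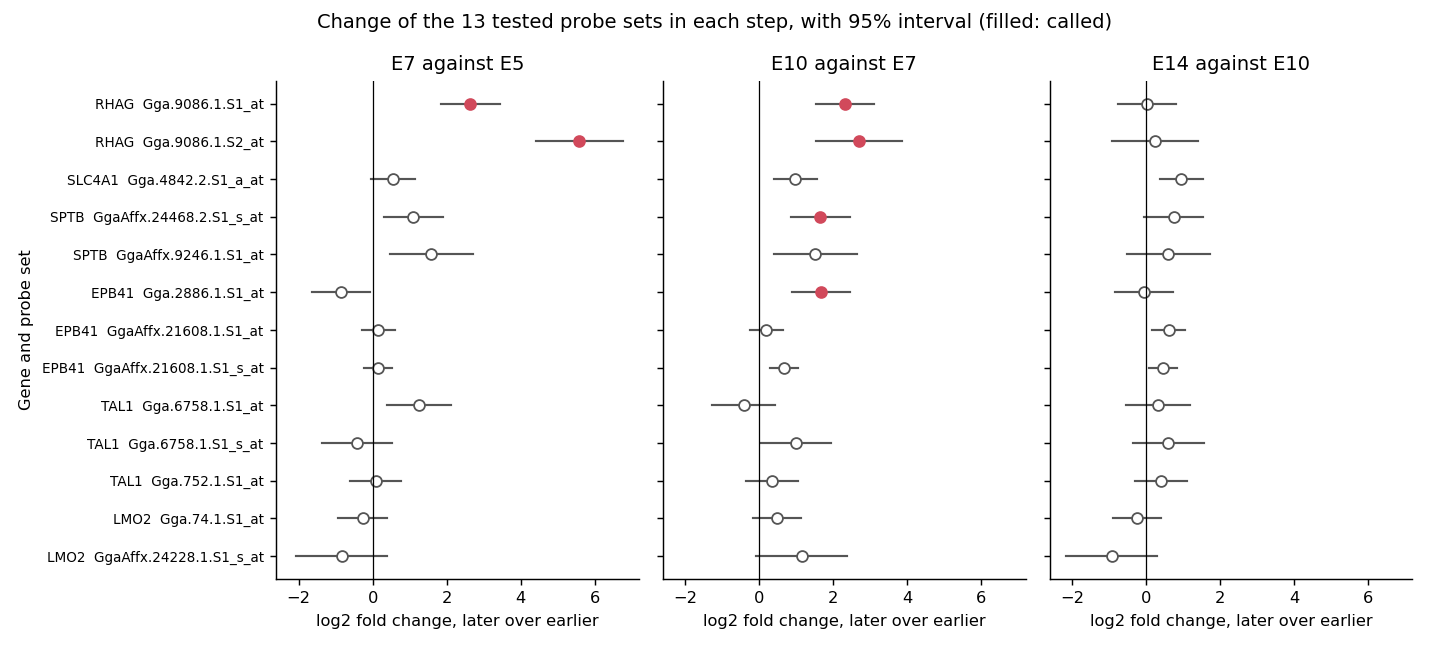
Log2 fold change, later over earlier, of the 13 tested probe sets (rows) at E7 against E5, E10 against E7 and E14 against E10, with 95% intervals from the limma fit; filled points are called. RHAG alone was called in the first step, both probe sets of RHAG, 1 of SPTB and 1 of EPB41 in the second, and none in the third.

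TAL1 is a helix-loop-helix factor needed to form all blood lineages, and it also acts in endothelial cells. Its 3 tested probe sets had low signals: the first averaged 25.8 ± 7.58 at E5, 65.0 ± 34.0 at E7, 44.6 ± 4.62 at E10 and 55.6 ± 4.83 at E14 (SD, n = 3 each). The second, from the same sequence cluster but with the suffix s_at, averaged 55.5 ± 14.4, 47.5 ± 32.1, 81.2 ± 13.9 and 126 ± 35.6, and the third, from another cluster, 67.6 ± 11.3, 74.8 ± 32.0, 90.5 ± 14.5 and 121 ± 32.2, at the same stages in order. On all 3, every E14 array was above every E5 array.

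In no single step was TAL1 called by limma, the smallest unadjusted p being 0.00754, for the first probe set at E7 against E5 (1.25). At E14 against E5 the first probe set differed by 1.14 (SE 0.40, adjusted p = 0.0368) and the second by 1.18 (SE 0.44, adjusted p = 0.0482), which met both limits, and the third by 0.82 (adjusted p = 0.0577), which met neither. The TAL1 calls were near the limits and depended on the processing. Both were lost with no filter on low signals, with an offset of 16, with quantile normalization and with array medians equalized. Both were also lost without E5 replicate 2, E5 replicate 3, E14 replicate 1 or E14 replicate 2, where the adjusted p went up to 0.121 and 0.166. With each of the 12 arrays left out in turn, the first was lost in 5 fits and the second in 9. For the second these include the fits without E7 replicate 1 or any single E10 array, which are outside the comparison. With array medians equalized the adjusted p of the 2 was 0.105 and 0.234, and with quantile normalization 0.0686 and 0.205.

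LMO2 is a LIM-domain protein that bridges TAL1 and GATA factors in progenitors and in endothelium. Its brighter probe set had 515, 483 and 399 at E5, 598, 293 and 324 at E7, 447, 564 and 601 at E10, and 546, 607 and 277 at E14. The 4 stages overlapped. At E14 against E5 the difference was -0.04 with a 95% interval of -0.69 to 0.62 (adjusted p = 0.935), so that a change of 2-fold lies outside the interval. The dimmer LMO2 probe set spread more, from 23.9 to 161 over the 12 arrays, and differed by -0.62 (interval -1.85 to 0.61, adjusted p = 0.415). LMO2 was called by limma in none of the 5 comparisons, where its smallest unadjusted p was 0.0653.

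GATA1 is the zinc-finger factor that drives most red cell genes. The annotation names no probe set for it, but a table of orthologs supplied with the study pairs 1 further probe set with GATA1. That table lists probe sets already called changed, so these values are a description without a test. They were 83.5, 117 and 72.1 at E5, 168, 119.9 and 142 at E7, 476, 505 and 459.8 at E10, and 680.1, 308 and 291 at E14. All E7 arrays were above those of E5 and all E10 arrays above those of E7, while the E14 arrays lay on both sides of E10. On the log2 scale the means differed by 0.68 at E7 against E5, 1.76 at E10 against E7 and -0.29 at E14 against E10.

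Counted over the 13 tested probe sets, 2 rose at E7 against E5, both of RHAG, where 1.02% of all tested probe sets rose. At E10 against E7 4 rose, of RHAG, SPTB and EPB41, where 2.75% of all rose; only 2 were left without E7 replicate 2 and only 1 without E10 replicate 1 or without E10 replicate 3. In that step the median log2 fold change was 0.99 over the 13 and 0.06 over all. At E14 against E10 no member was called by limma in either direction, where 1.22% of all rose. In that step 3 of the 13 had an unadjusted p under 0.05, a count given without the matching share over all tested. The median was 0.40 over the 13 and -0.05 over all.

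Over longer spans 5 rose at E10 against E5, where 9.36% of all tested probe sets rose, and 8 at E14 against E5, where 14.8% rose. The 8 were of RHAG, SLC4A1, SPTB, EPB41 and TAL1. By the brightest probe set of each gene, as used for the wider lists, 3 of the 6 genes rose at E14 against E5: RHAG, SLC4A1 and SPTB. The E14 arrays lay wholly above the E5 arrays for 11 of the 13 probe sets, where this held for 28.0% of all tested. No member fell in any comparison, where 0.243% of all tested fell at E7 against E5, 0.671% at E10 against E7, 1.48% at E14 against E10, 4.78% at E10 against E5 and 13.6% at E14 against E5. The comparisons share arrays, so these counts are not independent of each other. Of the 13, 4 (both of RHAG, the dimmer of SPTB and 1 of TAL1) were under the limit of 35 at E5 and were tested only through a later stage. Those of RHAG and the one of SPTB are among the 5 that rose at E10 against E5. All 4 are among the 8 that rose at E14 against E5. Of the 9 that met the limit already at E5, 4 rose at E14 against E5. The share that rose among all probe sets meeting the limit at E5 was not computed, so this count has no matching background. By the moderated F test over the 4 stages 8 of the 13 differed, where 28.1% of all tested did, and none of these was of LMO2.

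Single CAMs of 1 stage differed from gene to gene. At E7 replicate 2 was the lowest of the 3 CAMs on both probe sets of RHAG, on that of SLC4A1 and on both tested ones of SPTB, but the highest on the brightest probe set of EPB41, at 1556, where the other E7 CAMs had 1001 and 1476. At E14 replicate 1 was the highest on all of these, on GATA1 and on the 3 tested probe sets of EPB41, but not on LMO2. Over the 12 arrays, stage differences included, the log2 signals of the brightest probe set per gene correlated at r = 0.951 for SLC4A1 with SPTB, 0.875 for RHAG with SPTB and 0.817 for RHAG with SLC4A1. LMO2 had r between -0.31 and 0.25 with the other 5 genes. Probe sets of 1 gene correlated at 0.962 for RHAG and 0.926 for SPTB, but at -0.03, 0.29 and 0.73 among the 3 of TAL1. These 12 arrays share their stages, so the correlations are descriptions.

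The genes most like each member over the 12 arrays, among 14424 probe sets with 1 symbol, were TIMP3 (an inhibitor of matrix proteases, r = 0.971) and RELN (reelin, a secreted matrix protein, 0.969) for RHAG, after the unnamed locus LOC422090 (0.975). For SLC4A1 they were ITGB4 (the integrin β4 of epithelial hemidesmosomes, 0.978), CD82 (a tetraspanin, 0.976) and SCNN1B (a subunit of the epithelial sodium channel, 0.976). For SPTB they were GTPBP1 (0.982), PLBD2 (0.978) and RPS6KL1 (0.976), for EPB41 KRT71 (0.957), ANKRD28 (0.942) and MSANTD2 (0.942). TAL1 was most like LZTR1 (0.917), MYH10 (0.913) and GPATCH4 (0.902), and LMO2 like UBE2O (0.878), TSC1 (0.837) and TSPAN7 (0.837). Members were left out of the candidates, so none of these 18 could be a member. None of them is on the wider red cell lists used here.

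The wider red cell membrane list, by the brightest probe set of each gene, had 24 tested genes of 33 listed, and 10 of them rose at E14 against E5 with none falling, where 14.8% of all tested probe sets rose and 13.6% fell. With the offset of 16, 8 rose. The list also holds relatives of the red cell genes, such as SPTBN1, SPTAN1, EPB41L2 and RHBG, so its counts are not of red cell genes alone. CA2, a carbonic anhydrase of red cells and of acid-secreting epithelia, rose by 5.43 (adjusted p = 2.12e-05) and RHCG, an Rh-family ammonia transporter best known from epithelia, by 5.14 (adjusted p = 0.000217). RHCG signals were 114, 204 and 319 at E14, against 7.24, 19.7 and 1.19 at E5, so it was tested only through a later stage, and its difference was 3.29 with the floor of 20 and 3.13 with the offset of 16. For genes of the wider lists these 2 settings were chosen after seeing the data. RHCE, the gene of the Rh antigens, rose by 2.50 (adjusted p = 1.40e-05) and ANK1, the ankyrin that ties band 3 to spectrin, by 2.28 (adjusted p = 7.87e-05). CA2 was the 1 gene of the list that rose at E14 against E10, by 3.17 (adjusted p = 0.0147), and MPP1, a membrane palmitoylated scaffold protein, fell by 2.00 (adjusted p = 0.0131). The E10 CAMs differed widely on both, with 250, 270 and 1750 for CA2 and 488, 923 and 227 for MPP1. At E14 CA2 had 5083, 4465 and 3810, and MPP1 had 143, 133 and 83.8. With the floor of 20 or the offset of 16, 2 genes of the list rose in that step. Over all tested probe sets 1.22% rose and 1.48% fell in that step. None of the 24 was called by limma at E7 against E5, where 1.02% of all tested rose and 0.243% fell. In that step 11 of the 24 had an unadjusted p under 0.05. The share of all tested under that looser rule is not given here, so this count has no matching background. At E10 against E7 1 of the 24 rose and at E10 against E5 6 rose, with none falling. Over all tested probe sets 2.75% and 9.36% rose in these comparisons, and 0.671% and 4.78% fell. ANK1 was measured at 1362, 717 and 479 at E14, against 162, 209 and 122 at E5, without overlap.

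At E14 against E5 limma called none of 14 tested heme synthesis genes, where 14.8% of all tested rose and 13.6% fell. Of the 14, 4 had an unadjusted limma p under 0.05. Over all tested probe sets 38.8% had even an adjusted p under 0.05, whatever the fold. The median difference was 0.17 over the list and 0.03 over all tested probe sets. FECH, ferrochelatase, which puts iron into heme, fell by 1.24 (adjusted p = 0.0053) at E10 against E5, where 4.78% of all tested fell. It was the 1 call of the list in any of the 5 comparisons.

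Of 14 tested genes around the erythropoietin receptor 9 rose at E14 against E5, and none fell, beside the same 14.8% and 13.6% over all tested. BCL2L1, a survival factor, rose by 1.64 (adjusted p = 2.29e-05) and PTPN6, a phosphatase of blood cells, by 1.58 (adjusted p = 0.000231). The fitted differences of KIT, the stem cell factor receptor, and SOCS3, a feedback inhibitor of cytokine signaling, were larger but rested on low E5 signals. KIT had 71.1, 153 and 97.98 at E14, against 21.1, 0.614 and 17.7 at E5. SOCS3 had 69.1, 73.0 and 146 at E14, against 25.4, 4.95 and 17.5 at E5. KIT rose by 4.06 (adjusted p = 0.00581), which became 2.33 with the floor of 20 and 2.11 with the offset of 16, and SOCS3 rose by 2.79 (adjusted p = 0.00145), which became 2.06 and 1.80. Of 14 tested genes of further erythroid transcription factors 6 rose in that comparison and none fell. Another 5 of that list, GATA2, LDB1, MAFG, MYB and ZFPM1, had a probe set but were below the limit and not tested. MAFK, a partner of NFE2, rose by 1.82 (adjusted p = 9.93e-05). RUNX1, a factor of definitive blood formation, had 49.6, 39.9 and 71.0 at E14, against 10.02, 7.96 and 3.35 at E5, and rose by 3.01 (adjusted p = 0.00325), which became 1.38 with the floor and 1.57 with the offset. KIT, SOCS3 and RUNX1 were tested only through a later stage. At E10 against E5 6 genes around the receptor and 1 further transcription factor gene rose, where 9.36% of all tested rose. At E10 against E7 1 gene around the receptor rose and no further transcription factor gene did, where 2.75% of all tested rose.

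**Figure D3:**
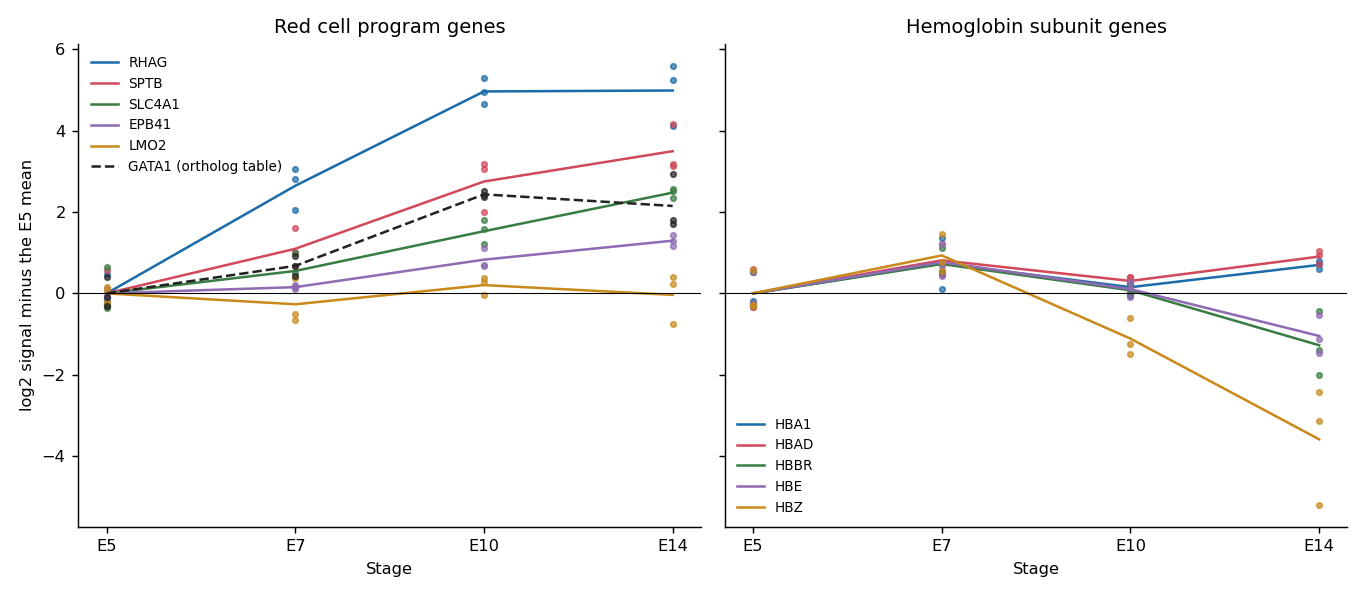
Log2 signal minus the E5 mean over the stages E5 to E14, for RHAG, SPTB, SLC4A1, EPB41, LMO2 and GATA1 (left) and 5 hemoglobin subunit genes (right). GATA1 is dashed and shown as a description, and TAL1 is not shown. RHAG is drawn by its first probe set, and SPTB and LMO2 by their brighter ones. EPB41 is drawn by the probe set with the suffix s_at, its only one called at E14 against E5. Points are single CAMs and lines stage means. The membrane genes ended above their E5 level, while HBBR, HBE and HBZ ended below it.

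Of the 5 hemoglobin subunit genes 3 fell at E14 against E5, where 13.6% of all tested probe sets fell. HBZ, an embryonic α-type subunit, had 3421, 6222 and 3383 at E5, 6083, 11517 and 7136 at E7, 1482, 1744 and 2758 at E10, and 778, 471 and 113 at E14. All its E14 arrays were below every other array. HBZ fell by 2.04 (adjusted p = 0.0407) at E10 against E7 and fell by 2.47 (adjusted p = 0.0191) at E14 against E10. The embryonic β-type subunits HBBR and HBE fell by 1.35 (adjusted p = 0.0397) and 1.15 (adjusted p = 0.0395) at E14 against E10. Over all tested probe sets 0.671% fell at E10 against E7 and 1.48% at E14 against E10. HBA1 and HBAD, the α-type subunits that definitive red cells also make, were not called in any comparison, and their differences at E14 against E5 were 0.70 (adjusted p = 0.0685) and 0.90 (adjusted p = 0.0134, under the fold limit). The hemoglobin genes are close relatives in sequence, and how far each probe set reads 1 gene alone was not tested.

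Summed over the 5 hemoglobin probe sets, the signal ranged from 17197 to 30578 over the E5 arrays, from 27728 to 50662 at E7, from 18122 to 22482 at E10 and from 17552 to 23083 at E14. E14 thus overlapped E5 in summed hemoglobin signal, while RHAG, SLC4A1 and SPTB did not overlap between these stages. The sum joins the 3 subunits that fell at E14 against E5 with the 2 not called. At E5 and E7 the 5 probe sets lay close together on each array, for example 3092 to 3843 on E5 replicate 1 and 8806 to 11517 on E7 replicate 2. Whether a ceiling of the signal or shared sequence limited these values was not tested. E7 replicate 2, the lowest of its stage for RHAG, SLC4A1 and SPTB, was the highest of its stage for each of the 5 hemoglobins. Adult β-globin is not among the 5.

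Marker genes of other cell types of the membrane also changed in signal over the same days. Of the markers tested, 9 of 14 endothelial, 8 of 9 leukocyte and 3 of 5 thrombocyte genes rose at E14 against E5 and none fell, where 14.8% of all tested probe sets rose and 13.6% fell. Not every marker met the limit of 35 at E5. C1QA, C1QB, C1QC, KDR and ERG, for example, were tested only through a later stage, and C1QB had 18.8, 24.7 and 29.9 at E5. The summed signal of the endothelial list was 3114 to 4527 at E5, 6408 to 8149 at E7, 6514 to 10252 at E10 and 7497 to 10267 at E14. That of the leukocyte list was 393 to 529, 743 to 951, 1242 to 1510 and 3404 to 5063, and that of the thrombocyte list was 937 to 1153, 1732 to 2047, 1439 to 1957 and 2001 to 2417, in the order of the stages. The part of these cells in the changes of the red cell genes was not tested.

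**Figure D4:**
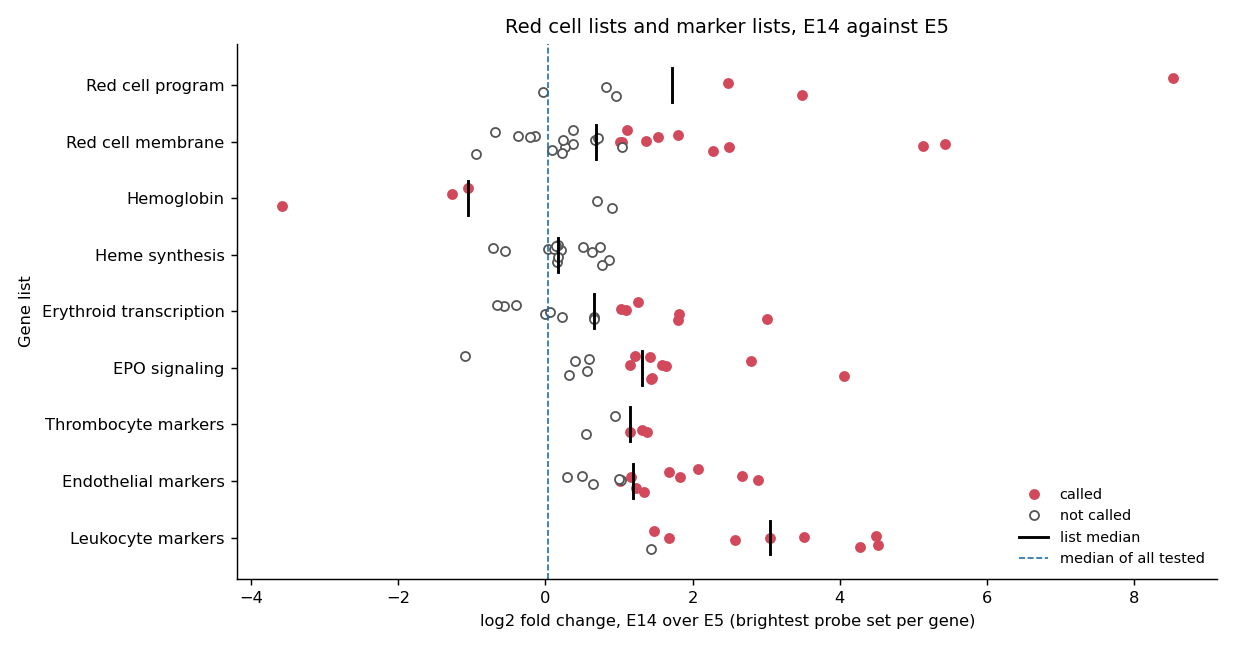
Log2 fold change at E14 against E5 for the brightest probe set of each tested gene in the red cell program, 5 wider red cell lists and 3 marker lists; filled points are called, black bars are list medians and the dashed line is the median of all tested probe sets (0.03). Heme synthesis genes lie near the dashed line, hemoglobin points split to both sides of it, and most leukocyte markers lie well to its right.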

How the data were processed

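CAM RNA of 12 chick embryos (3 at each of E5, E7, E10 and E14) was hybridised to Affymetrix chicken arrays. The deposited intensity values are signals, 1 per probe set, that the authors computed with GCOS 1.2 at default settings and scaled over each array to a trimmed mean of 100. They are linear and come without detection calls, and the number of arrays limits the precision. Probe sets were named from the platform annotation, in which 27168 of 38439 apart from controls carry 1 symbol, 177 several and 11094 none. Of those with 1 symbol, 26853 have a gene ID that the RefSeq gene table of the GRCg7b assembly also lists.

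Groups came from the labels. The authors filtered by present calls and tested with SAM. Here a probe set was tested where its signal was at least 35 in all 3 arrays of at least 1 stage, since present calls were not used here, and log2 signals were fitted with limma 3.58.1 in R 4.3.3, with a mean per stage, moderated variances with an intensity trend, and Benjamini-Hochberg adjusted p over all 17726 tested. The code was tested on simulated data. Tables and plots were made with Python 3.11.15, pandas 2.3.3 and matplotlib 3.10.9. For the wider lists, called genes were named in some comparisons only, at most 4 per list and comparison, so not every called gene is named. For each member the 3 most alike by Pearson r were named, among tested probe sets that are not of members. The members, lists and tests were chosen with earlier results of these data known. GATA1 was described through the study's ortholog table, and any table of the study's own fold changes was left unused. Alternatives changed the filter, low signals, normalization, variance moderation, arrays in the fit, replicate block, test and fold limit, and left out each array in turn. Replicate numbers did not pair the arrays: over 18 same-numbered pairs across stages, deviations from stage means correlated at -0.14 to 0.071, and the labels state no pairing. No genome sequence was used here, so coordinates and sequences are not given.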

Additional observations from a re-analysis of the deposited data

How the results depend on the processing

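Of 1470 values of single member probe sets under the alternatives, 1390 kept their direction and their side of the limits, 54 were no longer called, 7 became called, and 19 changed sign. None of these 19 was called in either setting. Many of the 1470 values could not change direction. The log2 fold change stays the same by construction under another filter, variance moderation, test or fold limit. The same holds for the replicate block, for a fit of the 6 compared arrays alone, and when the array left out is of a stage outside the comparison. The sign changed with medians equalized for the third TAL1 probe set (-0.24) and both same-source EPB41 probe sets (-0.17 each) at E7 against E5 and for the first RHAG probe set at E14 against E10 (-0.21), and with quantile normalization for that TAL1 probe set (-0.20) and for the brighter LMO2 probe set at E14 against E5 (0.031). With single arrays left out, the ranges that took in a change of sign were -0.94 to 0.082 and -0.25 to 0.30 for the second and the third TAL1 probe set at E7 against E5, -0.0083 to 0.31 for the EPB41 partner probe set at E10 against E7, -0.30 to 0.071 for the dimmer EPB41 probe set, -0.46 to 0.11 for the brighter LMO2 one and -0.28 to 0.46 for the first of RHAG at E14 against E10, and -0.25 to 0.31 for the brighter LMO2 one at E14 against E5. With the exact two-sided Wilcoxon rank sum test per probe set, whose smallest p with 3 against 3 arrays is 0.1, the members called were 0 at E7 against E5, 0 at E10 against E7, 0 at E10 against E5 and 0 at E14 against E5, where limma had 2, 4, 5 and 8. With each array left out in turn the members called ranged from 2 to 3 at E7 against E5 (3 without E7 replicate 2), from 1 to 4 at E10 against E7 (2 when E7 replicate 2 was left out, and 1 when either E10 replicate 1 or E10 replicate 3 was), from 6 to 8 at E14 against E5 and from 7 to 9 over the 4 stages. They stayed at 0 at E14 against E10 and at 5 at E10 against E5. Apart from the Wilcoxon test, the calls of the first RHAG probe set were kept under every alternative run. SLC4A1 became called at E10 against E7 without E7 replicate 1 (1.19, adjusted p = 0.0367), and the dimmer SPTB probe set at E7 against E5 without E7 replicate 2 (2.17, adjusted p = 0.0459).

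With the replicate number as a block, 7 members were called at E14 against E5, since the first TAL1 probe set missed the limit (adjusted p = 0.0525), and no other call of a member changed. The numbers are not known to pair the arrays. With array medians equalized the median of all tested probe sets moved to -0.36 at E7 against E5, 0.33 at E10 against E7, -0.29 at E14 against E10 and -0.26 at E14 against E5, and of the member calls the 2 of TAL1 at E14 against E5 were lost. The moves of the median of all tested probe sets follow from the setting itself, since the array medians differed between stages. These were 24.4 to 28.7 at E5, 26.2 to 48.6 at E7, 25.7 to 29.0 at E10 and 29.9 to 33.6 at E14. Why the array medians differed was not tested. Over all tested probe sets, the share called at E7 against E5 was 0.164% with medians equalized, and ranged from 0.711% to 1.38% with single arrays left out. At E10 against E7 that range was 1.47% to 4.32%, and at E14 against E10 it was 0.970% to 4.12%. The stricter filter, a signal of at least 100, kept 8 of the 13 members. Signals under about 20 carry little information on level, and with no detection calls the E5 level of RHAG has no lower bound here.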

Other observations

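ALAS1, the form of the first heme enzyme that all tissues make, is named by the annotation, and its gene ID carries ALAS2 as a synonym in the RefSeq gene table. It was not counted as a member. Its signals were 341, 399 and 419.6 at E5, 624, 415 and 309.9 at E7, 520.2, 511 and 422 at E10, and 399, 377 and 491 at E14. All E10 arrays were narrowly above those of E5, and every other pair of stages overlapped. At E14 against E5 the difference was 0.12 (SE 0.24, limma, adjusted p = 0.707).

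EPB42, protein 4.2, which binds band 3 in the red cell membrane, had signals of 1545, 957 and 653 at E14, against 321, 467 and 268 at E5, without overlap (1.53, limma, adjusted p = 0.00218). As for the membrane genes among the members, replicate 1 was the highest of the E14 CAMs.

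Of the 5 member probe sets left untested, 1 of SPTB came close to the limit, with a lowest signal of 33.7 at its best stage. It had 10.3, 13.7 and 13.2 at E5, 4.42, 1.37 and 58.0 at E7, 33.7, 43.8 and 60.0 at E10, and 79.9, 19.6 and 27.8 at E14. Another of SPTB had 50.7 on E7 replicate 3, the array with the highest median signal, and 0.978 to 4.35 on the other 11 arrays.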
